A study of Mus musculus with 6 samples.

Results

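The D-type cyclins (Ccnd1, Ccnd2 and Ccnd3) and the kinases that they activate (Cdk4 and Cdk6) were examined in C2C12 cells, an immortalized mouse myoblast line that leaves the cell cycle and forms multinucleated myotubes in low serum. Differentiated cultures, harvested on day 6 in 2% horse serum, were compared with proliferating cultures in 20% serum, with 3 RNA samples in each group and 1 Affymetrix array per sample. All cultures were of the same line, with no transgene or added agent. Each RNA sample combined 3 pools, each made from 3 plates cultured in parallel, so the spread between arrays is one between pools and not between single cultures. Every probe set annotated to 1 of the 5 genes alone was taken, which gave 19 of the 45037 probe sets tested, and the 5 genes are among 18193 genes with a probe set of their own. Cultures at day 6 hold mononucleated cells beside the myotubes, so fewer cells with a transcript and less transcript per cell cannot be told apart.

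D-type cyclins are the regulatory subunits that couple growth factors in serum to the cell cycle. Bound to Cdk4 or Cdk6, they phosphorylate the retinoblastoma protein and its relatives, which releases E2F transcription factors and lets cells pass from G1 into S phase. INK4 inhibitors bind the kinases themselves, while p21 and p27 of the CIP/KIP family bind the cyclin-kinase complex. Cyclin D1 is known as the serum-responsive member of the family in myoblasts, where its forced expression blocks the activity of MyoD, and cyclin D3 is known to be present in differentiated myotubes.

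The values are MAS 5.0 signals on a linear scale, and the tests were run on log2(signal + 15) with limma, with Benjamini-Hochberg adjustment over all 45037 probe sets. A probe set was called at an adjusted p under 0.05. Median signals of the arrays ran from 72.3 to 81.4 in differentiated cells and from 68.0 to 73.0 in proliferating cells. The brightest of 27 probe sets for bacterial transcripts lay between 51.9 and 87.0 on the 6 arrays, and a signal at or under that of its own array is called background. Of 9 muscle markers, 7 were called higher in differentiated cells, against 8.67% of all genes. Among them was myogenin (Myog), at 6854 ± 194 in differentiated cells against 172 ± 9.60 in proliferating cells (SD, n = 3 each). Myod1 (0.28 on the log2 scale) and Myf5 (-0.10) were not called. Markers of other cell types were summed as well. The 3 adipocyte markers measured summed to between 605 and 738 in differentiated cells and between 343 and 363 in proliferating cells, and Cebpa was called higher (0.89 on the log2 scale, adjusted p = 0.00087 from limma) while Adipoq was above background on 1 of 6 arrays. The 4 macrophage markers summed to between 583 and 603 in differentiated cells and between 444 and 475 in proliferating cells, with Adgre1 called higher at an adjusted p of 0.049 and Ptprc above background on 1 of 6 arrays. Fabp4, Cd68 and Csf1r were not called, and Cebpa alone was at 574 ± 44.2 in differentiated cells and 304 ± 41.4 in proliferating cells. Whether adipocytes or macrophages were present, and any part of theirs in the results below, was not tested. None of the 2 osteoblast and 3 endothelial markers measured was called.

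Cyclin D1, Cdk4 and Cdk6 transcripts were lower in differentiated cells, cyclin D3 was higher, and cyclin D2 was not called. Of the 19 probe sets, 8 were called lower, 1 was called higher and 10 were not called, while 12.6% of all probe sets were called (6.43% lower and 6.14% higher). With each gene represented by its brightest probe set, 4 of the 5 genes were called, against 17.7% of all genes, and the groups lay apart for all 5, against 33.5% of all genes. These shares are over genes of any signal, dim ones included, while the brightest probe sets of the 5 were above background on all 6 arrays. The 10 probe sets without a call were 7 of Ccnd2, 2 of Ccnd3 and 1 of Cdk6, and 6 of these 10 were at background on at least 1 array. All 9 called probe sets were above background on all 6 arrays.

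**Figure D1:**
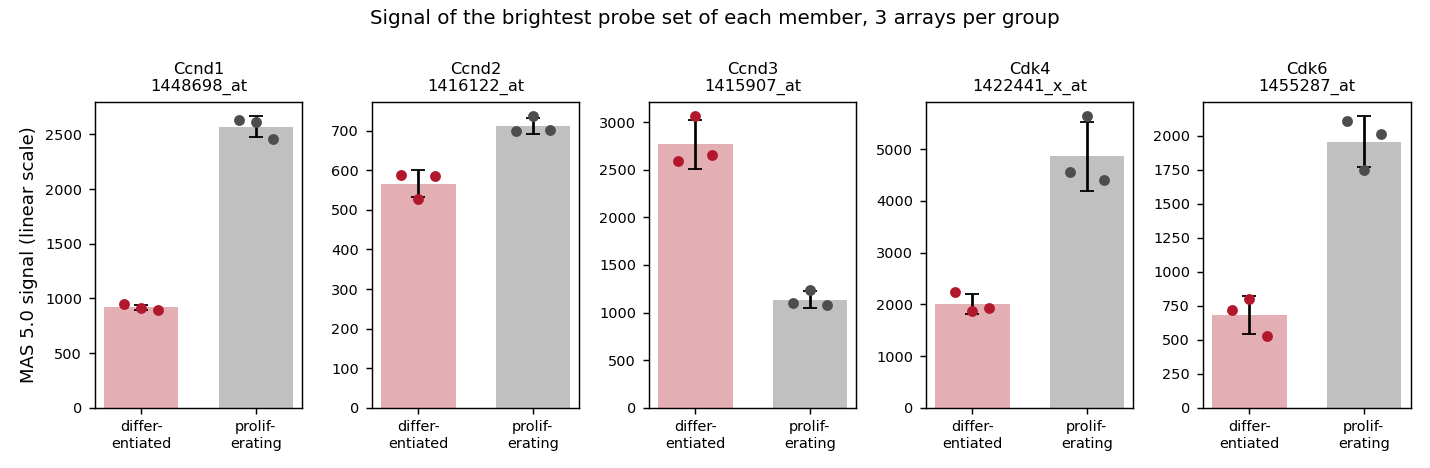
MAS 5.0 signal (vertical axis, linear scale from 0, a separate scale for each gene) of the brightest probe set of each gene on the 3 differentiated and the 3 proliferating arrays. Bars show the mean, error bars the SD and circles the single arrays. The groups lie apart for every gene, with Ccnd3 higher in differentiated cells (2767 against 1136) and the other 4 lower, although Ccnd2 (567 against 712) did not pass the test.

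Cyclin D1 was measured by 3 probe sets, and all 3 fell. At the brightest (1448698_at) the signals were 944.8, 910.7 and 898.1 on the differentiated arrays, against 2634.6, 2611.2 and 2458.6 on the proliferating arrays. The groups were far apart and the arrays within each group were close together. The means were 918 ± 24.2 and 2568 ± 95.6 (SD, n = 3 each), which gave a log2 change of -1.47 (SE 0.09, limma adjusted p = 2.2e-07), or 2.77-fold lower in differentiated cells. A fall of this size or larger was found at 1.39% of all probe sets.
At 1417420_at the signals were 409.5, 485.7 and 734.7 in differentiated cells, against 1435.6, 1868.3 and 1920.8 in proliferating cells. The log2 fold change was -1.68 (SE 0.18, limma adjusted p = 3.9e-05). At 1417419_at they were 204.9, 182.7 and 321.6 in differentiated cells, against 851.9, 827.8 and 798.0 in proliferating cells, a log2 fold change of -1.78 (SE 0.18, limma adjusted p = 2.1e-05). Differentiated replicate 3 was the highest of its group at these 2 dimmer probe sets and the lowest at the brightest one, so it did not stand apart in the same direction throughout. None of the 3 probe sets fell to background, and a signal of 898.1 was the lowest at the brightest of them.

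Cyclin D2 was measured by 7 probe sets, and none was called. The brightest (1416122_at) had signals of 587.1, 527.8 and 584.7 in differentiated cells, against 698.7, 736.2 and 700.6 in proliferating cells. Every differentiated array was below every proliferating array there, which was the case, in either direction, for 27.2% of all probe sets. The log2 fold change was -0.32 (95% interval from -0.56 to -0.09, adjusted p = 0.080 from limma, unadjusted p = 0.012). This interval leaves out a change of 1.5-fold in either direction. The probe set passed when the arrays were scaled to the same 75th percentile (-0.37, adjusted p = 0.046).
The other probe sets of Ccnd2 did not share a direction. At 1434745_at the signals were 507.1, 660.1 and 524.4 in differentiated cells, against 624.0, 575.8 and 541.6 in proliferating cells, and the groups overlapped. Its log2 fold change was -0.05 (95% interval from -0.33 to 0.24, adjusted p = 0.89 from limma). At 1430127_a_at, whose name marks probes shared by several transcripts of the gene, the value was 0.10 (95% interval from -0.23 to 0.44). At 1455956_x_at, whose name marks probes that also match other sequences, it was -0.26 (95% interval from -0.59 to 0.08). The groups overlapped at the former and lay apart at the latter, as they did at 27.2% of all probe sets. The remaining 3 probe sets were dim, with at most 3 arrays above background at 2 of them and 5 at the other, and their log2 fold changes ran from -0.77 to 0.50. Averaged over all 7 probe sets the value was -0.08 (adjusted p = 0.82 from limma).

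Of the 5 genes, Ccnd3 alone was called higher. At its brightest probe set (1415907_at) the signals were 2591.9, 3060.2 and 2649.7 on the differentiated arrays, against 1096.3, 1236.4 and 1075.7 on the proliferating arrays. The groups were apart by more than the whole of either group's range. The means were 2767 ± 255 and 1136 ± 87.4 (SD, n = 3 each), which gave a log2 change of 1.27 (SE 0.10, limma adjusted p = 2.6e-06), or 2.41-fold higher in differentiated cells. A rise of this size or larger was found at 2.92% of all probe sets. The gene was thus already well above background before differentiation.
The other 2 probe sets of Ccnd3 were dim. At 1438805_at the signals were 38.4, 75.1 and 104.0 in differentiated cells, against 36.9, 10.8 and 10.8 in proliferating cells. All 3 proliferating arrays and 1 differentiated array were at background, and the log2 fold change of 1.35 (95% interval from 0.23 to 2.47, limma adjusted p = 0.13) was not called. At 1444323_at 1 of 6 arrays was above background and the value was -0.25 (adjusted p = 0.88). The call of Ccnd3 therefore rests on 1 probe set. The mean over all 3 was called at 0.79 (limma adjusted p = 0.049), but it includes that probe set and is not separate evidence.

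**Figure D2:**
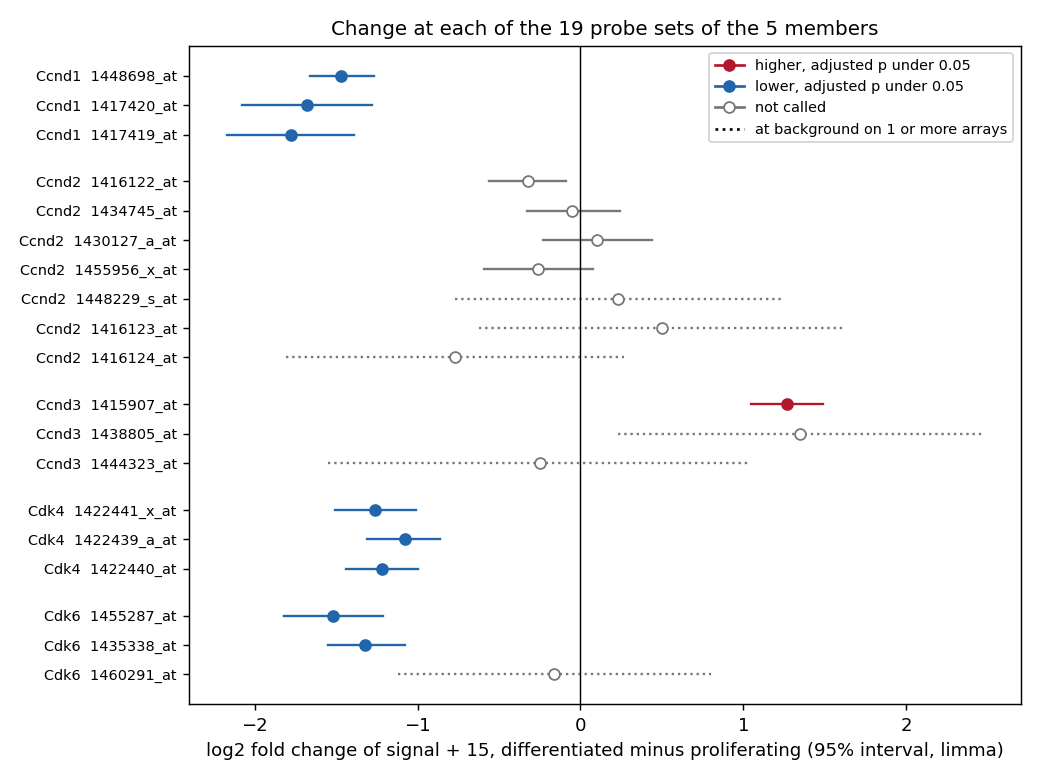
Log2 fold change of the signal plus 15 (horizontal axis, differentiated over proliferating cells, n = 3 arrays each) at each of the 19 probe sets (vertical axis, brightest first within a gene), with the 95% interval from limma. Filled circles are called at an adjusted p under 0.05, open circles are not, and dotted lines mark probe sets at background on 1 or more arrays. The 8 probe sets called lower belong to Ccnd1, Cdk4 and Cdk6 and lie between -1.78 and -1.08, and the 1 called higher, of Ccnd3, lies at 1.27.

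RefSeq gives Ccnd3 a pair of promoters (GRCm38.p6, plus strand), each taken as 250 bases before and 50 bases after a start site. They are shown since this gene moved against the others, with GC boxes (GGGCGG on either strand) in capitals.
Ccnd3 upstream promoter, chr17:47504801-47505100: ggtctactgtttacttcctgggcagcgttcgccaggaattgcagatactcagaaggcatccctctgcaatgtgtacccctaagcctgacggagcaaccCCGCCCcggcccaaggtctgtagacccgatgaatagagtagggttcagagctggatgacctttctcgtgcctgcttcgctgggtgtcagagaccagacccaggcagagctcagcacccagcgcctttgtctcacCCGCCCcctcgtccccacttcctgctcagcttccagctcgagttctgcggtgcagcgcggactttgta
Ccnd3 downstream promoter, chr17:47593217-47593516: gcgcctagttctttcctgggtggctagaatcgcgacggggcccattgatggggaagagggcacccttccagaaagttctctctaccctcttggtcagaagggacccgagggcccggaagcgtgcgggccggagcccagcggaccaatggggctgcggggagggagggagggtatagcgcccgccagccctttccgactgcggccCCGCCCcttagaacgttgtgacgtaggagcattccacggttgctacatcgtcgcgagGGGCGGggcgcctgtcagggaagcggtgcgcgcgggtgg
Each window holds 2 GC boxes, a motif found, in any number, in 35.7% of the 32851 promoters of this length. The upstream window is 59.3% G and C and the downstream one 67%, against a median of 52.7% over all promoters. The shares given here are not adjusted for this. Neither holds an E-box of the form CANNTG, which 72.3% of all promoters hold, nor therefore CAGCTG, the E-box bound by MyoD and myogenin (16.3%), or CACGTG, the E-box bound by Myc and Max (7.15%). TTTCCCGC and TTTGGCGC, bound by E2F factors, were searched on both strands too (1.07% and 0.514% of all promoters) and matched in neither window. The array data do not tell which of these promoters was in use.

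The changes of the 3 cyclins were set against each other within each array, so that a shift of a whole array drops out. The log2 difference of Ccnd3 minus Ccnd1, taken relative to its mean over the proliferating arrays, was 2.61, 2.90 and 2.71 on the differentiated arrays, against -0.09, 0.10 and -0.01 on the proliferating arrays. The 2 transcripts thus moved apart by 2.74 ± 0.10 (standard error). For Ccnd3 minus Ccnd2 the shift was 1.59 ± 0.13, and for Ccnd2 minus Ccnd1 it was 1.15 ± 0.06 (standard errors). In these 3 comparisons the groups did not overlap, and each had an exact permutation p of 0.10 (2-sided, 0.13 after adjustment over the 4 pairs compared), the smallest that 3 arrays against 3 allow. No pair could therefore pass 0.05 by this test.

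**Figure D3:**
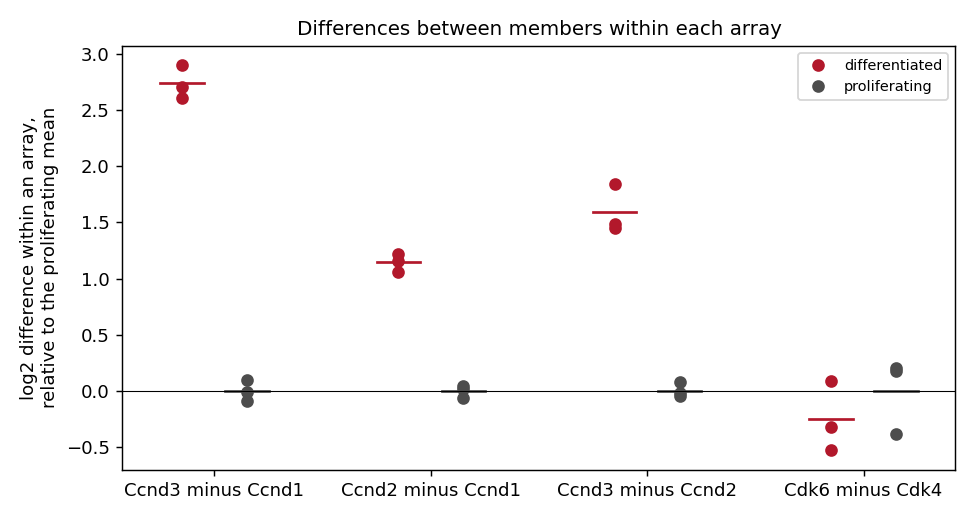
Log2 difference between the brightest probe sets of 2 genes within each array (vertical axis), relative to the mean of the proliferating arrays, for 4 pairs of genes (horizontal axis). Circles are single arrays and lines are group means. Ccnd3 and Ccnd1 moved apart by 2.74, and the groups overlap only for Cdk6 minus Cdk4.

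Cdk4 was measured by 3 probe sets, and all 3 fell by a like amount. At the brightest (1422441_x_at) the signals were 2231.8, 1871.7 and 1933.0 on the differentiated arrays, against 4557.5, 5636.2 and 4402.9 on the proliferating arrays. The means were 2012 ± 193 and 4866 ± 672 (SD, n = 3 each), which gave a log2 change of -1.26 (SE 0.11, limma adjusted p = 7.8e-06). Proliferating replicate 2 was the highest array at all 3 probe sets of Cdk4, and without it the change was still called. Some probes of this probe set also match other sequences, but the 2 probe sets without that mark gave nearly the same change.
At 1422440_at the signals were 1315.0, 1382.4 and 1186.8 in differentiated cells, against 2879.5, 3343.2 and 2890.1 in proliferating cells, and the log2 fold change was -1.22 (SE 0.10, limma adjusted p = 3.5e-06). At 1422439_a_at they were 1400.0, 1533.4 and 1369.2 in differentiated cells, against 2796.7, 3442.9 and 2950.8 in proliferating cells, with a log2 fold change of -1.08 (SE 0.10, limma adjusted p = 1.2e-05). Cdk4 thus fell by between 2.12 and 2.40-fold and stayed far above background.

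Cdk6 fell at 2 of its 3 probe sets. At 1455287_at the signals were 715.2, 798.0 and 529.4 on the differentiated arrays, against 2106.4, 1748.1 and 2011.4 on the proliferating arrays. The means were 681 ± 138 and 1955 ± 186 (SD, n = 3 each), which gave a log2 change of -1.52 (SE 0.14, limma adjusted p = 1.0e-05), or 2.86-fold lower in differentiated cells. The lowest array was differentiated replicate 3, and the groups were apart by more than the range of either.
At 1435338_at the signals were 620.6, 555.6 and 581.8 in differentiated cells, against 1359.0, 1648.4 and 1445.1 in proliferating cells, a log2 fold change of -1.32 (SE 0.11, limma adjusted p = 3.4e-06). The third probe set, 1460291_at, was at background on all 6 arrays, with signals from 39.5 to 65.1, and gives no fold. The falls of the 2 kinases could not be told apart, since Cdk6 minus Cdk4 shifted by -0.25 ± 0.26 (standard error), with overlapping groups and an exact permutation p of 0.30 (2-sided, adjusted p = 0.30).

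The promoters of the 2 kinases are shown next (RefSeq, GRCm38.p6, plus strand, the same window as above). CACGTG, the E-box bound by Myc and Max, is in capitals. Ccnd1 fell as well, but no promoter was matched to it or to Ccnd2, so neither could be searched.
Cdk4 promoter, chr10:127063285-127063584: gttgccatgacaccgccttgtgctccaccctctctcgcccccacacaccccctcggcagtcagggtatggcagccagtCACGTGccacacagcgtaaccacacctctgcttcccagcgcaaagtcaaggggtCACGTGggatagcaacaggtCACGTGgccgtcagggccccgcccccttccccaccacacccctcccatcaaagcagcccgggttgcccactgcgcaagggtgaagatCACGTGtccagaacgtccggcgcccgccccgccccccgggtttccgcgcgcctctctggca
Cdk6 promoter, chr5:3343643-3343942: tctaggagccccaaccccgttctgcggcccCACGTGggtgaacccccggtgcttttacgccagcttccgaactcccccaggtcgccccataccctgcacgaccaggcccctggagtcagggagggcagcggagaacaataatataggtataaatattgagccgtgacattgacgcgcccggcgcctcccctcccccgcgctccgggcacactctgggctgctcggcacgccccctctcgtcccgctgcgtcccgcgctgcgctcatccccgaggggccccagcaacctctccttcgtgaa
CACGTG reads the same on both strands and was counted once. It occurs 4 times in the Cdk4 window, at bases 79, 133, 153 and 240 from the 5′ end, and once in the Cdk6 window, at base 31. Of all 32851 promoters 7.15% hold it, and 8 (0.024%) hold it 4 times or more. The Cdk4 window is 67% G and C and the Cdk6 window 66.7%, against a median of 52.7%, and the shares are not adjusted for this. In both windows every CANNTG is one of these, and neither holds CAGCTG, TTTCCCGC or TTTGGCGC. The Cdk4 window also holds GGGCGG 3 times, of which 2 overlap by 1 base, and the Cdk6 window does not hold it. A match is a run of letters and was not tested as a binding site. Myc was among the upstream factors called lower (values below), and a link between Myc and either kinase transcript was not tested.

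The other genes of the pathway were taken from 9 lists, with each gene represented by its brightest probe set. Of 87 genes measured (of 90 listed), 14 were higher, 26 were lower and 47 were not called. Of all 18193 genes, 8.67% were called higher and 9.05% lower, with a median log2 fold change of 0.06.

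**Figure D4:**
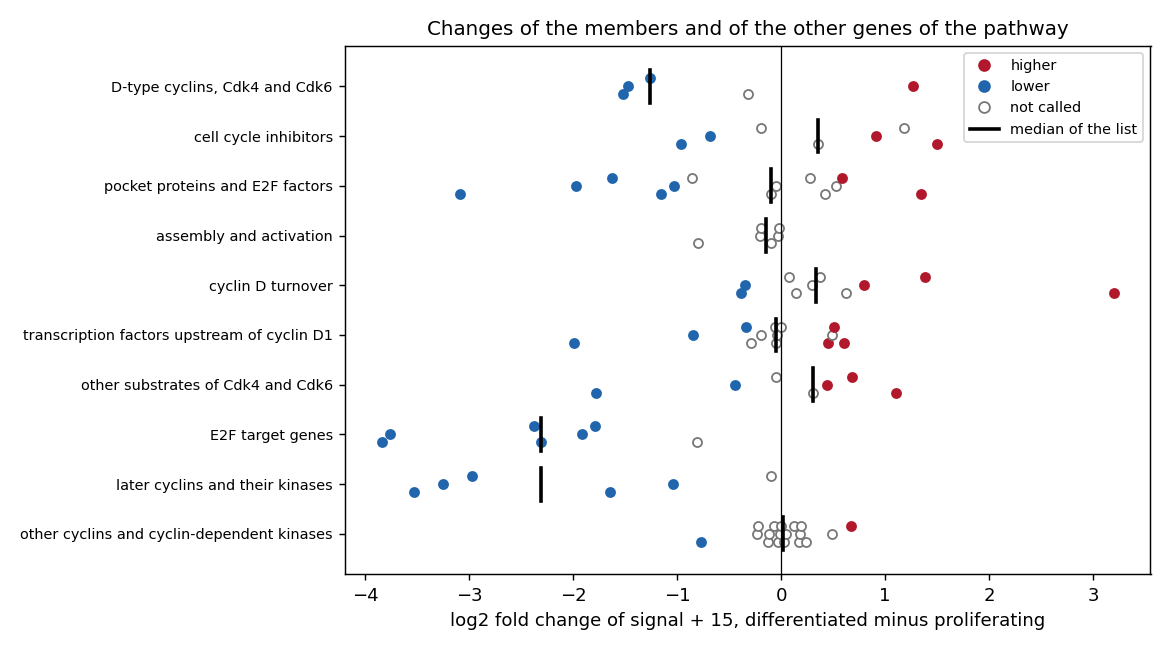
Log2 fold change of the signal plus 15 (horizontal axis, differentiated over proliferating cells, n = 3 arrays each) of the 5 genes and of 9 lists of pathway genes (vertical axis), each gene by its brightest probe set. Filled circles are called at an adjusted p under 0.05, open circles are not, and black bars are medians of the lists, -2.31 for the E2F target genes and 0.01 for the other cyclins and cyclin-dependent kinases. Genes that were at background in one of the groups are plotted at the fitted value, which is not a bound.

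Among 7 inhibitors of the cyclin D kinases, 2 were higher, 2 were lower and 3 were not called (median 0.35). The 2 that rose are of the CIP/KIP family. Cdkn1a (p21) had signals of 10478.4, 11643.9 and 9227.2 in differentiated cells, against 3764.2, 3638.0 and 3625.6 in proliferating cells, a log2 fold change of 1.50 (SE 0.11, limma adjusted p = 8.1e-07). Cdkn1b (p27) was at 922 ± 129 in differentiated cells and 483 ± 55.1 in proliferating cells (SD, n = 3 each), a change of 0.91 (adjusted p = 0.00046). This was the brighter of its 2 probe sets, and the other was not called. The 2 that fell are INK4 proteins, which bind Cdk4 and Cdk6 directly. Cdkn2c (p18) was at 414 ± 38.3 in differentiated cells and 822 ± 87.7 in proliferating cells (-0.96, adjusted p = 0.00018), and Cdkn2d (p19) was at 377 ± 33.9 in differentiated cells and 616 ± 41.8 in proliferating cells (-0.69, adjusted p = 0.0025). Cdkn2d was not called with eBayes without trend. Cdkn2b was at background on all 6 arrays, Cdkn2a was above it on 2 and Cdkn1c on 1.

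Of 13 pocket proteins and E2F factors, 2 were higher, 5 were lower and 6 were not called (median -0.10). The retinoblastoma gene Rb1, the main substrate of the cyclin D kinases, rose, with signals of 863.9, 1063.5 and 764.4 in differentiated cells, against 389.8, 241.3 and 424.4 in proliferating cells (1.34, standard error 0.19, adjusted p = 0.00038 from limma). This was its brighter probe set, and the other of its 2 was not called. Its relative Rbl1 (p107) fell, to 122 ± 34.5 in differentiated cells, against 513 ± 53.0 in proliferating cells (-1.97, adjusted p = 2.5e-05), at 1 of its 4 probe sets. Rbl2 (p130) was at 0.42 (adjusted p = 0.091) at its brighter probe set, while the other of its 2 was called higher. Of the E2F factors, the repressors E2f7 and E2f8 had the largest falls, at -3.09 (adjusted p = 4.7e-07) and -1.63 (adjusted p = 1.2e-05), with E2f7 above background on 2 of 3 differentiated arrays.

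Of the 9 lists, the E2F target genes and the later cyclins had the lowest medians. Of 7 E2F target genes measured, 6 were lower and 1 was not called (median -2.31, or -1.92 with such genes as Cdc6 placed at their bound). The gene not called, Tyms, was above background on 1 proliferating array and on no differentiated array. Tk1, a thymidine kinase, was at 127 ± 26.8 in differentiated cells and 2009 ± 149 in proliferating cells (SD, n = 3 each). Mcm5 of the replicative helicase was at 139 ± 45.7 in differentiated cells and 2016 ± 110 in proliferating cells, and its partner Mcm3 at 270 ± 33.4 in differentiated cells and 1458 ± 91.4 in proliferating cells. Of their probe sets, 2 of 3 for Mcm5 and 4 of 5 for Mcm3 were called lower. Cdc6, which loads that helicase, was at background on every differentiated array and at least 3.63-fold lower, by the mean of the proliferating arrays against the background of the differentiated ones. Of 6 later cyclins and their kinases measured, 5 were lower and 1 was not called (median -2.31). Cyclin A2 (Ccna2) changed by -3.53 (SE 0.12, limma adjusted p = 1.2e-09), Cdk1 by -3.25 (adjusted p = 4.9e-10), cyclin B2 (Ccnb2) by -2.97 (adjusted p = 1.5e-06) and cyclin E2 (Ccne2) by -1.65 (adjusted p = 0.013), the last with 1 of 3 differentiated arrays above background. The call of Ccne2 ended without proliferating replicate 1 or 3 and with eBayes without trend. Cdk2, the partner of cyclins E and A, was at 547 ± 76.6 in differentiated cells and 586 ± 68.7 in proliferating cells (SD, n = 3 each), a change of -0.10 (adjusted p = 0.76). Among the kinases of the cell cycle measured, Cdk2 was thus not called while Cdk1, Cdk4 and Cdk6 fell, and the differences between their changes other than Cdk6 minus Cdk4 were not tested.

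Upstream of cyclin D1, 3 of 13 transcription factors were higher, 3 were lower and 7 were not called (median -0.05). Fosl1, an AP-1 subunit, fell most, with signals of 429.2, 512.3 and 411.7 in differentiated cells, against 1721.6, 1908.4 and 1856.8 in proliferating cells (-1.99, standard error 0.11, adjusted p = 1.1e-07 from limma). Myc was at 675.4, 564.0 and 652.6 in differentiated cells, against 1013.9, 1287.4 and 1153.2 in proliferating cells (-0.85, standard error 0.12, adjusted p = 0.00032). Stat3 (0.60, adjusted p = 0.0019, at 2 of its 4 probe sets) and Jun (0.51, adjusted p = 0.0042) were called higher. Neither was called with eBayes without trend, under which none of the 13 factors was higher. Beta-catenin (Ctnnb1) was at -0.05 (adjusted p = 0.84).

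The next lists hold genes that assemble, activate and degrade the complexes. Of 6 genes of assembly and activation measured, none was called by limma with all arrays and probe sets kept. Cdc25a, a phosphatase that activates cyclin-dependent kinases, was the 1 with an unadjusted p under 0.05 (-0.80, unadjusted p = 0.011, adjusted p = 0.077 from limma). By the regularized test of the methods 1 gene of this list was called lower. Limma also called 1 lower with dim probe sets left out, and 1 without differentiated replicate 2. The kinase chaperone Cdc37 was at 2423 ± 63.0 in differentiated cells and 2792 ± 309 in proliferating cells (SD, n = 3 each), a change of -0.20 (adjusted p = 0.28), and Cdk7, Ccnh and Mnat1, which form the kinase that activates Cdk4 and Cdk6, were between -0.19 and -0.03 at their brightest probe sets, while 1 dimmer probe set of the 5 of Cdk7 was called higher. Of 10 genes of cyclin D turnover, 3 were higher, 2 were lower and 5 were not called (median 0.34). Usp2, a deubiquitinase that stabilizes cyclin D1, had signals of 511.2, 603.0 and 400.5 in differentiated cells, against 19.0, 28.5 and 103.3 in proliferating cells, of which 1 was above background (fitted change 3.20, adjusted p = 0.00011). Cryab (1.38, adjusted p = 1.7e-06, at 2 of its 3 probe sets), a small heat shock protein that acts with Fbxo4 on cyclin D1, is also a muscle protein in its own right. Fbxo4 itself was at 0.37 (adjusted p = 0.33). Cul4a was at 0.80 (adjusted p = 0.0029, not called with eBayes without trend) and Cul4b at -0.39 (adjusted p = 0.030, at 1 of its 2 probe sets). The call of Cul4b was lost when any of 5 single arrays was left out.
Of 7 other substrates of the kinases, 3 were higher, 2 were lower and 2 were not called (median 0.31). Foxm1, a factor for mitotic genes, was at 126 ± 32.7 in differentiated cells and 471 ± 121 in proliferating cells (-1.78, adjusted p = 0.00018, at 3 of its 4 probe sets). Mef2d, a muscle transcription factor (1.10, adjusted p = 5.9e-05), and Smad3, a transducer of TGF-beta (0.68, adjusted p = 0.00085), were called higher, each at 1 of its 3 probe sets. Wdr77 was called lower (-0.44, adjusted p = 0.012), also at 1 of 3, and this call ended without differentiated replicate 2. With eBayes without trend neither Smad3 nor Wdr77 was called. Of 18 cyclins and cyclin-dependent kinases outside the G1 and later cell cycle lists, 1 was higher (Ccnt1, 0.67, adjusted p = 0.0018, at 1 of its 2 probe sets and not with eBayes without trend), 1 was lower (Cdk8, -0.77, adjusted p = 0.00065) and 16 were not called (median 0.01), beside 17.7% of all genes called. Of the 16, Ccng1 had 1 dimmer probe set of 3 called lower and Ccni 1 of 4 called higher.

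The genes closest in pattern to each of the 5 were found by the root-mean-square difference of log2 values over the 6 arrays, each gene centred on its own mean, among 11244 genes with a mean signal above the median. For Ccnd1 they were Septin11, Nqo1 and Alyref, at 0.076 to 0.077, and for Ccnd2 they were Ehd2, Psmd14 and Dnajb1, at 0.020 to 0.031. For Ccnd3 they were Heca, Cuedc1 and Cds2, at 0.052 to 0.072. For Cdk4 they were Shmt2, Ube2s and Srm, at 0.081 to 0.088, which changed by -1.23, -1.35 and -1.31. The distance takes in the difference between the groups, so a change of like size follows from the ranking itself. For Cdk6 they were Gpd2, Zdhhc2 and Slc39a10, at 0.107 to 0.108. None of the 5 genes was among the 3 nearest to another, which does not tell whether the 5 vary together.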

How the data were processed

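RNA of 3 differentiated and 3 proliferating C2C12 samples had been hybridized to Affymetrix mouse arrays. The authors deposited 1 intensity per probe set, the MAS 5.0 signal on a linear scale, with the 2% trimmed mean of every array at 250. GCRMA, which the methods apply next, needs probe-level data and was not repeated. The 64 control probe sets were left out. Of the 45037 tested, 34945 name 1 gene in the platform annotation, 932 name several and 9160 none, and only the first kind was used for genes. log2(signal + 15) was tested by lmFit and eBayes with trend (limma 3.58.1, R 4.3.3, 2-sided, Benjamini-Hochberg). A gene is represented by its brightest probe set. Pairs of genes were compared by exact permutation of the 6 arrays. The fit was tested on simulated data. The members and lists were chosen with earlier results of these data known. Beyond the members, the genes named are up to 4 called genes of each list with the largest change, the marker genes and the 3 nearest in pattern. Rbl2, Cdkn2a, Cdkn2b, Cdkn1c, Tyms, Cdk2, Ctnnb1, Fbxo4, Ccng1, Ccni and the genes of assembly were added after their values were seen. Same-numbered arrays of the groups did not deviate together (r = 0.012, 0.00066 and 0.0094 over all probe sets), so replicate numbers were not taken as pairs. Python 3.11.15, pandas 2.3.3 and numpy 2.4.6 were used for the other steps. Promoters are from RefSeq (GRCm38.p6), with 3 of the 5 genes matched (Ccnd3, Cdk4 and Cdk6).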

Additional observations from a re-analysis of the deposited data

How the results depend on the processing

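The calls of Ccnd1, Ccnd3, Cdk4 and Cdk6 kept their direction and stayed past the threshold under all 15 alternatives each (2 normalizations, 2 pseudocounts, a filter on dim probe sets, eBayes without trend, the regularized test of the methods, the replicate block, each array left out, and the mean of all probe sets). Their log2 fold changes ran from -1.64 to -1.44, 0.79 to 1.33, -1.34 to -1.15 and -1.64 to -1.0. Ccnd2 was called in 1 alternative, after scaling to a common 75th percentile (-0.37). The shift of Cdk6 minus Cdk4 changed sign with the mean of all probe sets (0.19), which includes the Cdk6 probe set at background. Against 40 pathway genes called, 25 were called with eBayes without trend (6 higher, against 14), and between 34 and 38 with a single array left out, of which 34 to 37 were among the 40. The calls of 25 genes held in every alternative, and 8 were lost when some array was left out. By list, eBayes without trend moved the turnover genes to 2 called (of 5), the factors upstream of cyclin D1 to 2 (of 6, with 0 in place of 3 higher), the inhibitors to 1 lower (of 2), the other substrates to 2 (of 5) and the later cyclins and kinases to 3 (of 5). The turnover genes had 3 calls without differentiated replicate 1, differentiated replicate 2 or proliferating replicate 1. With the replicate block 9 probe sets of the 5 genes and 35 pathway genes were called, and the turnover genes had 3 calls. The number of arrays, 3 per group, limits the precision of every value, and probe sets at background limit Ccnd2 and the minor probe sets of Ccnd3 and Cdk6.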
